A study of Rattus norvegicus with 18 samples.

Results

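Cholesterol is built from acetyl-CoA by a long chain of enzymes, and 28 genes of that chain and of its control were followed here across 18 rats, out of 38445 genes in the deposited count files. The set was a named list of rat gene symbols, ordered by pathway step: 8 genes of the mevalonate step, 3 that make and close squalene, 10 of the late sterol step, 1 of the isoprenoid branch, 4 regulators and 2 genes of sterol handling. Tissue was the ventral tegmental area (VTA), a midbrain region that holds dopamine neurons. Adult male wild-type Sprague Dawley rats formed 3 groups of 6. Withdrawal rats (rats 13 to 18) had eaten a liquid diet with 9% (v/v) ethanol and were then kept without ethanol for 24 h. Chronic ethanol rats (rats 7 to 12) had the same diet and were taken at 0 h of withdrawal, and control rats (rats 1 to 6) had the control liquid diet. Feeding lasted 15 or 16 days on the Lieber-DeCarli diets, a standard way of giving ethanol in food. Each rat gave 1 library, so n = 6 per group throughout.

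The adult brain makes its own cholesterol, because lipoproteins of the blood do not cross the blood-brain barrier, and much of the store lies in myelin. In the mevalonate step acetyl-CoA is turned into farnesyl diphosphate, from which a side branch leads to geranylgeranyl groups for proteins. Farnesyl units are joined to squalene, which is oxidised and closed to lanosterol, and the late sterol enzymes trim lanosterol to cholesterol. The transcription factor SREBP2, product of Srebf2, switches these genes on. It is held in the endoplasmic reticulum by Scap and the Insig proteins while sterols are plentiful, and travels to the Golgi for cleavage when they are scarce. Nuclear SREBP2 binds sterol regulatory elements and works with NF-Y, a factor that binds CCAAT boxes, and with Sp1, which binds GC boxes.

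Libraries held 29.6 to 45.1 M counts, and a gene at 0 would have an upper 95% limit of 3 counts, or 0.0665 to 0.101 CPM (a gene's counts per 1 M counts of its library, scaled with TMM factors); such limits cover counting error only. All 28 genes were counted in every library well above it and all passed the filter on low counts. Mature oligodendrocyte markers (10 of 10 detected) summed to 17302 to 45477 CPM in withdrawal rats, 31134 to 42957 CPM in chronic ethanol rats and 31176 to 42841 CPM in control rats. Dopamine neuron markers (6 of 6 detected) summed to 366 to 2732 CPM in withdrawal rats, 427 to 3139 CPM in chronic ethanol rats and 1020.1 to 3282 CPM in control rats, with withdrawal rat 17 and chronic ethanol rat 8 far below the others. Withdrawal rat 13 stood apart: its oligodendrocyte sum was the lowest of all, and the pineal gene Tph1, an enzyme of serotonin synthesis, reached 14990.0 CPM there, against at most 7.43 CPM in any other rat. Pineal markers (3 of 3 detected) summed to 2.98 to 15426 CPM in withdrawal rats, 2.90 to 9.68 CPM in chronic ethanol rats and 2.59 to 6.04 CPM in control rats. Slc17a7, a vesicular glutamate transporter, was at 409 to 810.2 CPM in rats 5, 8 and 13 and at most 23.8 CPM elsewhere. Hoxb3, a hindbrain gene, was at 31.4 CPM in rat 5 and 30.7 CPM in rat 8, at 0 counts in rat 13 (below the limit of 3 counts) and at most 2.01 CPM elsewhere. Medians over the 28 genes and the number called are also given without rats 5, 8, 13 and 17. Log2 changes of single genes without rat 13 are given only for Hmgcs1, Idi1 and Tm7sf2, in withdrawal against control.

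Levels were compared between genes per length, as CPM per kb of exon. In control rats the highest was Hmgcs1 at 149 ± 6.33 CPM per kb (SD, n = 6), followed by Fdps at 117 ± 16.2, Cyp51 at 104 ± 4.95, Msmo1 at 95.8 ± 4.23, Insig1 at 85.8 ± 11.5 and Sc5d at 71.4 ± 4.83 CPM per kb. The lowest were Stard4 at 6.70 ± 0.615, Acat2l1 at 5.83 ± 0.713, Hsd17b7 at 5.21 ± 0.466 and Faxdc2 at 2.76 ± 0.789 CPM per kb. Neighbours in this order often lay within each other's spread; the ranges of Cyp51 and Fdps overlapped, for example. Within the control group the coefficient of variation ran from 4.24% for Hmgcs1 to 28.6% for Faxdc2, the most weakly expressed gene of the set. In the other groups Hmgcs1 also led, with 94.6 ± 23.8 CPM per kb in withdrawal rats and 129 ± 26.96 CPM per kb in chronic ethanol rats.

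**Figure D1:**
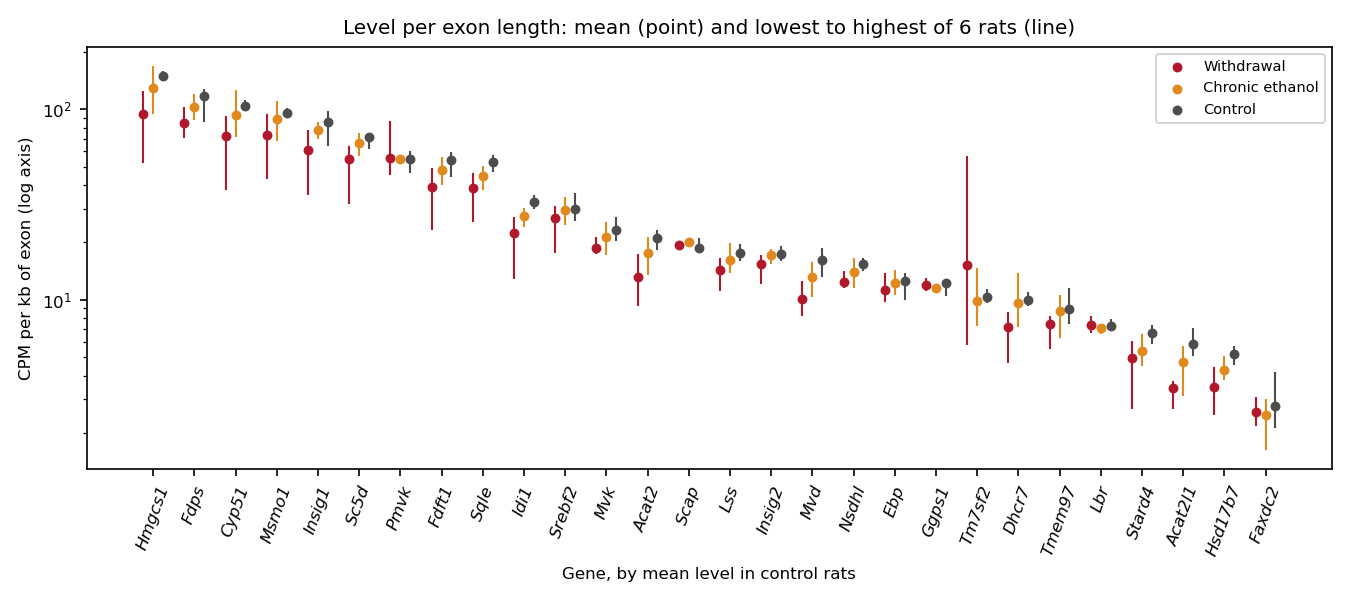
Level of each of the 28 genes as CPM per kb of exon on a log axis, in withdrawal (red), chronic ethanol (orange) and control (grey) rats, with points at the mean and lines from the lowest to the highest of 6 rats. The genes span from about 2.76 (Faxdc2) to 149 CPM per kb (Hmgcs1) in control rats, and Tm7sf2 has the widest withdrawal line because of rat 13.

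RefSeq promoter windows, 250 bases before to 50 bases after the start site in the GRCr8 build, were found for 24 of the 28 genes; Pmvk, Fdft1, Sqle and Stard4 were not matched. A CCAAT box, the letters CCAAT read on both strands, lay in at least 1 window of 19 of the 24 genes (79.2%), against 39.6% of 27457 genes with a window. The genes without one were Acat2, Acat2l1, Cyp51, Dhcr7 and Scap. A GC box, GGGCGG on both strands, was also in 19 of 24 (79.2%), against 36.0% of all genes, and no CCAAT match overlapped a GC box match. A sterol regulatory element core, TCACNCCAC on both strands, was in none of the 24 windows and in 1.25% of all genes' windows. The shorter CACNCCAC, tried after the longer form had no match, was in 3 of 24 (12.5%; Acat2, Ebp and Insig1), against 6.25% of all genes. A match is a description of letters, not evidence of a bound site. Of the genes in which every withdrawal rat was below every control rat, 8 have a window; 4 of these hold a CCAAT box (Hmgcs1, Mvd, Idi1 and Hsd17b7) and 4 do not (Acat2, Acat2l1, Cyp51 and Dhcr7). Of the other genes, 15 of 16 with a window hold one. Windows of 6 genes are given here to show each case: Hmgcs1 and Mvd (separated groups, with boxes), Acat2 and Cyp51 (separated groups, no box), Lbr (overlapping groups, with boxes) and Scap (overlapping groups, no box). Capitals mark CCAAT boxes on either strand, which are read ATTGG where they lie on the other one, and each window is written along the gene's own strand.
Hmgcs1 (chr2:53382054-53382353, plus strand): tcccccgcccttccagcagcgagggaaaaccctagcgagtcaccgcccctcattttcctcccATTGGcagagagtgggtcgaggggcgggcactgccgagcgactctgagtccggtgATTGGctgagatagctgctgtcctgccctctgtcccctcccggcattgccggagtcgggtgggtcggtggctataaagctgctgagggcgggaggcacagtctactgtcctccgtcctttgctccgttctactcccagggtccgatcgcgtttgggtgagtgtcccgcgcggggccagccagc
Mvd (chr19:67414925-67415224, minus strand): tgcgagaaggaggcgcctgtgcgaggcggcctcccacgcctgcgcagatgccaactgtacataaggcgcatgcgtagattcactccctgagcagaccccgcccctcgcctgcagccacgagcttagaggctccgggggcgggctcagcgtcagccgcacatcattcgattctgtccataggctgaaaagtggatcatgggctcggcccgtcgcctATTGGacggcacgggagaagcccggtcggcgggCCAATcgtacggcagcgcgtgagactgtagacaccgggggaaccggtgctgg
Acat2 (chr1:50100590-50100889, plus strand): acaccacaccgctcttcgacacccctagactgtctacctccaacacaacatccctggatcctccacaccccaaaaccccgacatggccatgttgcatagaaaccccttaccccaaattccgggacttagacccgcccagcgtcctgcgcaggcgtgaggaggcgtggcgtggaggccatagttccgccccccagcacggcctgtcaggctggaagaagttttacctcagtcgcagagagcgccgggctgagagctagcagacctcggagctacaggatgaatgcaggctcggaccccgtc
Cyp51 (chr4:30991443-30991742, plus strand): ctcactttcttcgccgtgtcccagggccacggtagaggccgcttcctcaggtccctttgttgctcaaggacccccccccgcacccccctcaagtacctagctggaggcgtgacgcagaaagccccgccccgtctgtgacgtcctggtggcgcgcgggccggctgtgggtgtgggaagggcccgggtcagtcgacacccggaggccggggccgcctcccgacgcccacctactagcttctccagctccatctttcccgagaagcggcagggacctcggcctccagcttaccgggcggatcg
Lbr (chr13:96095660-96095959, minus strand): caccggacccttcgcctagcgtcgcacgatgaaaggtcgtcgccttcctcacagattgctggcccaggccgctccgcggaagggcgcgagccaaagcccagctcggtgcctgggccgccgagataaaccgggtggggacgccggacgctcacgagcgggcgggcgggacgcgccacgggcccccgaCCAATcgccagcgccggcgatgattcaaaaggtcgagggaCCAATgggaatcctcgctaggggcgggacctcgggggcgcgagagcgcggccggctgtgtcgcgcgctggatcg
Scap (chr8:119184188-119184487, plus strand): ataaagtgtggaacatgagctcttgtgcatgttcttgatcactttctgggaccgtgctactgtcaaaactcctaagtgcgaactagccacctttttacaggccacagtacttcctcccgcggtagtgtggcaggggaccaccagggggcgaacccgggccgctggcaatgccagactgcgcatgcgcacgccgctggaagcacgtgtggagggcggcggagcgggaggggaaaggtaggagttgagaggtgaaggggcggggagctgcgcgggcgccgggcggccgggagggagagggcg
The boxes of Hmgcs1 start 188 and 133 bases before its start site, those of Mvd 35 and 2 bases before it, and those of Lbr 64 and 24 bases before it. Acat2 and Cyp51 have 2 GC boxes each in their windows, and Scap, the escort protein of SREBP2, has 3.

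The first comparison, withdrawal against control, asks how the pathway stands a day after ethanol was taken away. Most of it was lower in withdrawal rats. The log2 change was below 0 for 24 of the 28 genes, against 46.3% of the 17637 genes tested, with a median of -0.39, beside 0.01 over all genes. The median was -0.60 for the mevalonate enzymes, -0.45 for the squalene enzymes and -0.35 for the late sterol enzymes, an order that did not hold with the library index in the fit. The 4 regulators had a median of -0.17. For 9 genes, Acat2, Acat2l1, Hmgcs1, Mvd, Idi1, Sqle, Cyp51, Hsd17b7 and Dhcr7, every withdrawal rat was below every control rat, which held for 0.38% of all genes tested.

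None of these differences passed the test over all genes. With edgeR's quasi-likelihood test and Benjamini-Hochberg adjustment over all genes, 0 of the 28 were called at an adjusted p under 0.05 (0.0% of the 17637 genes tested), and the lowest adjusted p among them was 0.193. At an unadjusted p under 0.05, 19 of the 28 were lower, against 3.58% of all genes, and 0 were higher, against 6.24%; over all genes 1732 passed that mark. DESeq2 called 8 of the 28, all lower (Acat2, Acat2l1, Hmgcs1, Mvd, Idi1, Fdps, Sqle and Hsd17b7), where it called 0.159% of all genes lower, and limma-voom called 0 genes. Leaving out rat 13, edgeR called 2 genes, of which 1 was Idi1. Without that rat 27 of the 28 genes were lower, with a median of -0.32, 21 had an unadjusted p under 0.05 (4.2% of all genes were lower at that mark), and 10 had every withdrawal rat below every control rat (0.629% of all genes). Without rats 5, 8, 13 and 17, 27 genes were lower, with a median of -0.36, 16 had no overlap between the groups (1.59% of all genes) and 0 were called.

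Libraries of withdrawal and control rats share no first index, the sample tag read from the library names, so the index and the treatment cannot be told apart in this comparison except through the chronic ethanol rats. Control rats all carry index A, chronic ethanol rats 7 and 8 index A and 9 to 12 index B, withdrawal rats 13 to 16 index B, and rats 17 and 18 index C. With the index as a term in the fit, the median over the 28 genes was -0.18, 21 of them were lower and 4 had an unadjusted p under 0.05 in the lower direction (2.54% of all genes). By step the medians in that fit were -0.29 for the mevalonate, -0.32 for the squalene and -0.067 for the late sterol enzymes. Single genes moved by different amounts: the log2 change was -0.34 for Acat2, -0.24 for Hmgcs1, -0.24 for Mvd and -0.08 for Nsdhl, but -0.56 for Idi1, -0.47 for Fdps and -0.72 for Hsd17b7. Mvk, Msmo1, Dhcr7 and Tmem97 came to lie above 0 there, at 0.04, 0.04, 0.08 and 0.07. Withdrawal rats 17 and 18, with index C, had median log2 ratios to the control mean of -0.36 and -0.40, and rats 13 to 16, with index B, of -0.85, -0.15, -0.39 and -0.40. In bulk tissue, fewer cells of a type and less RNA per cell cannot be told apart. With the mean of the oligodendrocyte markers as a term, the median was -0.34 and 26 of the 28 genes were lower, 19 of them at an unadjusted p under 0.05 (4.0% of all genes were lower at that mark). Rat 13, with the lowest sum of these markers, was not left out of that fit.

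**Figure D2:**
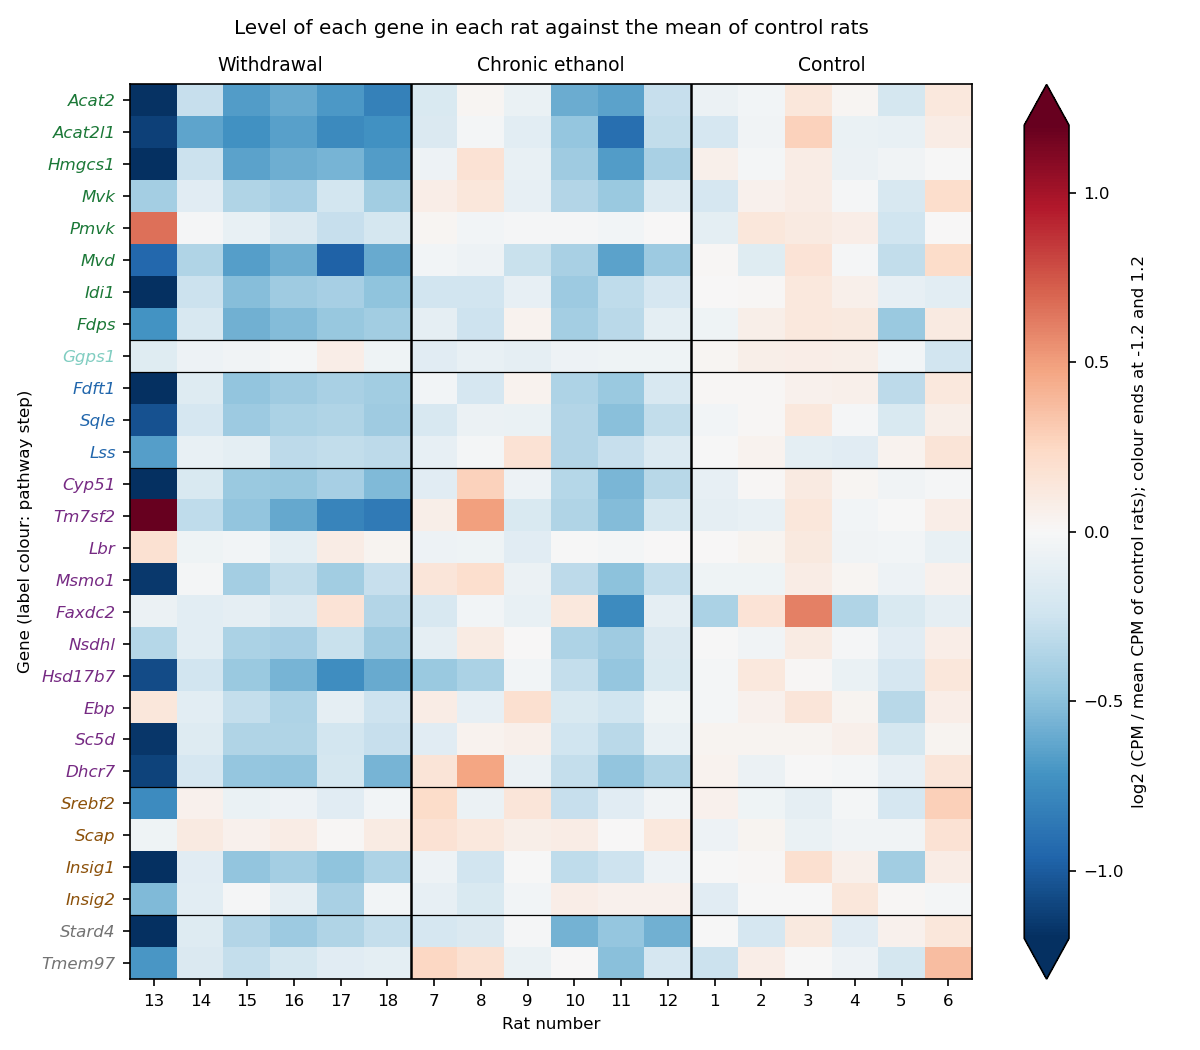
Colour shows log2 of the CPM of each gene in each rat over its mean in control rats, with withdrawal rats (13 to 18) on the left, chronic ethanol rats (7 to 12) in the middle and control rats (1 to 6) on the right; lines separate the pathway steps. Rat 13 is red in Pmvk and Tm7sf2 and the darkest blue of its group in 20 rows, rat 14 is the lightest of the withdrawal rats, and chronic ethanol rats 10 and 11 (medians -0.33 and -0.44) are bluer than rats 7 to 9.

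The mevalonate step opens with Acat2 (gene ID 308100, chr1:47972399-47992654, plus strand of Rnor_6.0, the build of all gene coordinates here), a thiolase that joins acetyl-CoA units. Its lowest, median and highest values of 6 rats were 15.6, 22.1 and 29.2 CPM in withdrawal rats, 22.7, 30.2 and 35.8 CPM in chronic ethanol rats and 30.5, 35.3 and 38.8 CPM in control rats. The withdrawal and control ranges did not touch, and the log2 change was -0.68 ± 0.13 (SE; adjusted p = 0.255). Acat2l1 (gene ID 365096, chr1:48008574-48025730, plus strand), a paralog beside it, had 3.89, 5.12 and 5.48 CPM in withdrawal rats, 4.54, 7.21 and 8.36 CPM in chronic ethanol rats and 7.35, 8.12 and 10.3 CPM in control rats. It had the lowest p of the set in withdrawal against control, at -0.76 ± 0.13 (SE; adjusted p = 0.193). Its exons also overlap another annotated gene on the same strand, and reads of near-identical copies were left out of the counts, so how counts divide between Acat2 and Acat2l1 is uncertain.

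Hmgcs1 (gene ID 29637, chr2:52427351-52445082, plus strand), the synthase that makes HMG-CoA, had 182, 342 and 438 CPM in withdrawal rats, 329, 445 and 588 CPM in chronic ethanol rats and 498, 517 and 554 CPM in control rats. Control rats lay within a narrow band and all 6 withdrawal rats lay below it, rat 13 by the most, while chronic ethanol rats spread over both ranges. The log2 change in withdrawal against control was -0.66 ± 0.16 (SE; adjusted p = 0.302), and -0.54 ± 0.12 (SE; adjusted p = 0.152) without rat 13. Mvk (gene ID 81727, chr12:47904266-47920457, minus strand), mevalonate kinase, had 28.5, 29.2 and 34.6 CPM in withdrawal rats, 27.99, 34.8 and 41.8 CPM in chronic ethanol rats and 33.1, 38.5 and 44.1 CPM in control rats, and 5 of 6 withdrawal rats were below every control rat. The next kinase, Pmvk (gene ID 310645, chr2:188784329-188793890, plus strand), was the exception of the step, with 44.4, 49.1 and 85.2 CPM in withdrawal rats, 52.4, 53.5 and 54.6 CPM in chronic ethanol rats and 45.5, 55.4 and 58.98 CPM in control rats. Its highest value was that of rat 13, against 44.4 to 53.2 CPM in the other withdrawal rats, and the groups overlapped. Without rat 13 its log2 change in withdrawal against control was below 0. With that rat included, means were 54.6 ± 15.3 CPM in withdrawal rats, 53.5 ± 0.839 CPM in chronic ethanol rats and 53.8 ± 5.35 CPM in control rats (SD, n = 6).

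Mvd (gene ID 81726, chr19:55258910-55268933, minus strand), the decarboxylase that yields isopentenyl diphosphate, had 13.8, 17.4 and 21.02 CPM in withdrawal rats, 17.3, 21.5 and 26.4 CPM in chronic ethanol rats and 21.9, 26.9 and 31.4 CPM in control rats. Every withdrawal rat was below every control rat, the lowest being rat 17 at 13.8 CPM and rat 13 at 14.02 CPM, and the log2 change was -0.67 ± 0.12 (SE; adjusted p = 0.193). Idi1 (gene ID 89784, chr17:57976266-57984036, minus strand), the isomerase of the pathway's isoprene units, had 36.2, 66.6 and 76.5 CPM in withdrawal rats, 67.8, 78.1 and 85.6 CPM in chronic ethanol rats and 83.9, 92.3 and 100.1 CPM in control rats. Again the ranges did not meet, at -0.53 ± 0.12 (SE; adjusted p = 0.302); without rat 13, whose value of 36.2 CPM was far below the other withdrawal rats, the log2 change was -0.42 ± 0.06 (SE; adjusted p = 0.0393) and was called. Fdps (gene ID 83791, chr2:188403595-188413219, minus strand), the synthase of farnesyl diphosphate, had 90.2, 106 and 129.9 CPM in withdrawal rats, 112, 131 and 153 CPM in chronic ethanol rats and 109, 158 and 162 CPM in control rats. Here the ranges overlapped through control rat 5, the lowest control at 109 CPM, and 4 of 6 withdrawal rats were below it; the log2 change was -0.47 ± 0.10 (SE; adjusted p = 0.284).

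**Figure D3:**
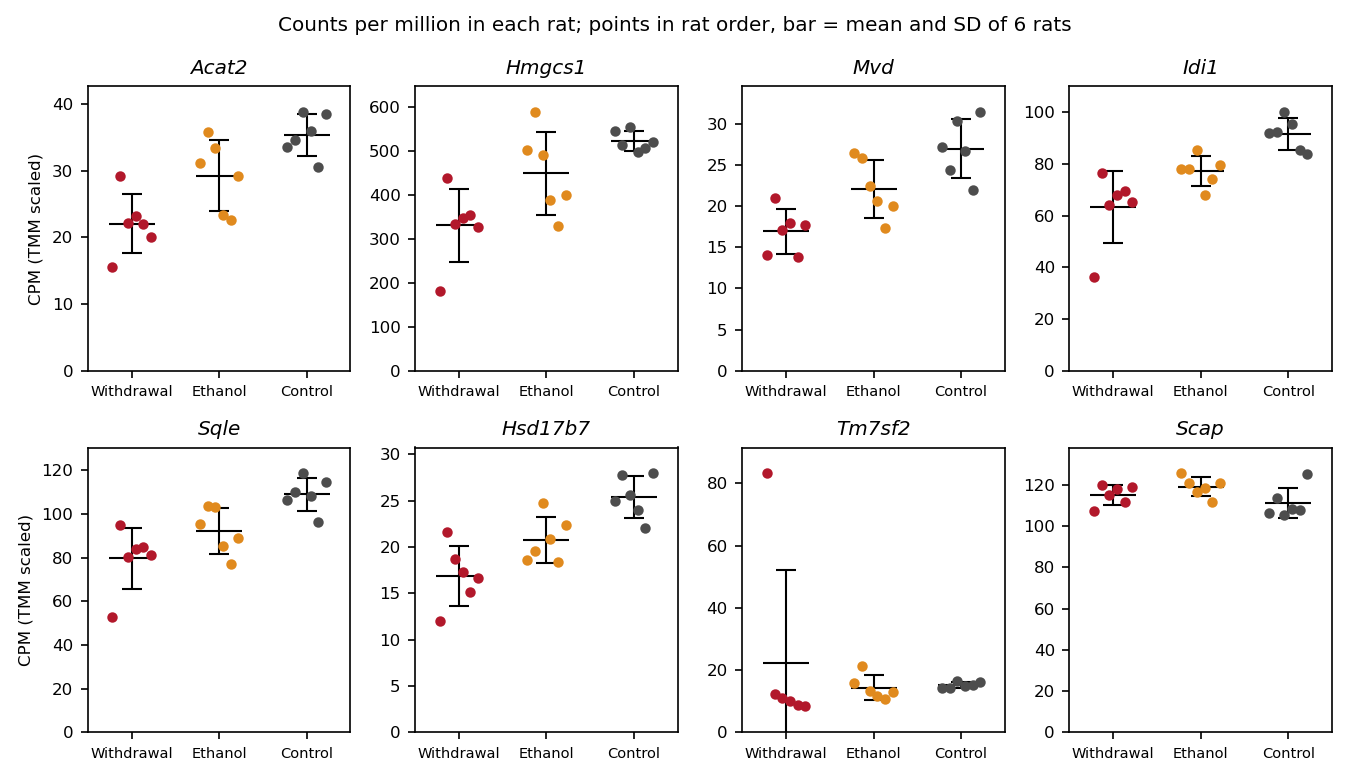
CPM of 8 genes in each of the 18 rats, with withdrawal on the left, chronic ethanol in the middle and control on the right of each panel; bars give the mean and SD of 6 rats and every axis starts at 0. Withdrawal points lie below all control points for Acat2, Hmgcs1, Mvd, Idi1, Sqle and Hsd17b7, the single high Tm7sf2 point is withdrawal rat 13 at 83.2 CPM, and Scap shows overlapping groups.

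Ggps1 (gene ID 291211, chr17:53956185-53971039, plus strand), which makes the geranylgeranyl groups of the side branch, showed no such pattern. It had 55.99, 60.2 and 65.7 CPM in withdrawal rats, 56.6, 59.03 and 59.95 CPM in chronic ethanol rats and 53.01, 64.2 and 65.4 CPM in control rats, and the groups overlapped throughout. Means were 60.4 ± 3.15 CPM in withdrawal rats, 58.7 ± 1.35 CPM in chronic ethanol rats and 62.1 ± 4.83 CPM in control rats (SD, n = 6). On the sterol side, Fdft1 (gene ID 29580, chr15:46339248-46367302, minus strand), squalene synthase, had 73.1, 129 and 155 CPM in withdrawal rats, 126, 149.8 and 177 CPM in chronic ethanol rats and 139, 176 and 188 CPM in control rats. Of the withdrawal rats 5 were below every control rat, rat 14 being the one inside the control range, and the log2 change was -0.48 ± 0.13 (SE; adjusted p = 0.349). Sqle (gene ID 29230, chr7:99609929-99624803, plus strand), squalene epoxidase, had 52.99, 82.5 and 94.8 CPM in withdrawal rats, 77.2, 92.2 and 104 CPM in chronic ethanol rats and 96.3, 109 and 119 CPM in control rats. Its withdrawal and control ranges came close, at withdrawal rat 14 at 94.8 CPM and control rat 5 at 96.3 CPM, and the log2 change was -0.45 ± 0.11 (SE; adjusted p = 0.302). Lss (gene ID 81681, chr20:12844522-12870474, minus strand), which closes the ring to lanosterol, had 31.7, 40.6 and 47.04 CPM in withdrawal rats, 39.2, 45.7 and 56.4 CPM in chronic ethanol rats and 45.4, 50.7 and 55.7 CPM in control rats, with 4 of 6 withdrawal rats below every control rat.

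Of the 10 late sterol genes 8 were lower in withdrawal against control, where 46.3% of all genes tested were. Of these, 6 had an unadjusted p under 0.05, against 3.58% of all genes that were lower at that mark. With the library index in the fit the median of this step was -0.067 in place of -0.35, and Msmo1 and Dhcr7 lay above 0. Cyp51 (gene ID 25427, chr4:27175564-27194018, plus strand), the demethylase of lanosterol, had 113, 231 and 278 CPM in withdrawal rats, 215, 269 and 382 CPM in chronic ethanol rats and 295, 315 and 339 CPM in control rats. Withdrawal and control rats did not overlap, and chronic ethanol rat 8 was the highest of all 18 rats. After it act the sterol reductases Tm7sf2 and Lbr. Tm7sf2 (gene ID 293688, chr1:221426017-221430340, minus strand) had 8.44, 10.4 and 83.2 CPM in withdrawal rats, 10.6, 13.3 and 21.4 CPM in chronic ethanol rats and 14.2, 15.01 and 16.7 CPM in control rats. Its withdrawal group holds 1 rat far above all others, rat 13 at 83.2 CPM, and 5 rats below every control rat. Its log2 change turned over with that rat: 0.55 ± 0.48 (SE; adjusted p = 0.673) with it and -0.59 ± 0.15 (SE; adjusted p = 0.208) without it, values chosen for printing after they were seen. Pineal markers were highest in the same library, and their part in the Tm7sf2 value was not tested. Lbr (gene ID 89789, chr13:100431390-100450209, minus strand), also a nuclear envelope protein, had 10.9, 11.9 and 13.4 CPM in withdrawal rats, 10.8, 11.6 and 11.9 CPM in chronic ethanol rats and 11.2, 11.7 and 12.8 CPM in control rats, and its groups overlapped.

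Msmo1 (gene ID 140910, chr16:26859441-26875880, plus strand), an oxidase of the sterol's methyl groups, had 73.4, 129 and 162 CPM in withdrawal rats, 117, 146 and 189 CPM in chronic ethanol rats and 157, 162 and 174 CPM in control rats; 5 withdrawal rats lay below every control rat and rat 14 lay among the control rats. Faxdc2 (gene ID 691221, chr10:43500825-43526376, minus strand), which carries a hydroxylase domain, varied most within control rats and had 7.35, 8.63 and 10.5 CPM in withdrawal rats, 5.53, 8.72 and 10.2 CPM in chronic ethanol rats and 7.17, 8.45 and 14.2 CPM in control rats. Nsdhl (gene ID 309262, chrX:152933118-152964399, plus strand), a dehydrogenase that acts with Msmo1 and Hsd17b7 in demethylation, had 33.8, 35.4 and 41.6 CPM in withdrawal rats, 33.9, 41.3 and 48.5 CPM in chronic ethanol rats and 41.4, 45.2 and 48.8 CPM in control rats. Only rat 14 was inside the control range, by 41.6 against 41.4 CPM in control rat 5, and the log2 change was -0.32 ± 0.08 (SE; adjusted p = 0.319). Hsd17b7 (gene ID 29540, chr13:88288116-88308019, minus strand), the keto reductase of that set, had 12.1, 16.99 and 21.6 CPM in withdrawal rats, 18.4, 20.2 and 24.8 CPM in chronic ethanol rats and 21.998, 25.3 and 27.9 CPM in control rats. No withdrawal rat reached the lowest control rat, and the log2 change was -0.58 ± 0.12 (SE; adjusted p = 0.255). With the index as a term it was -0.72 ± 0.22 (SE; adjusted p = 0.793).

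Ebp (gene ID 117278, chrX:15049394-15055782, plus strand), a sterol isomerase, had 10.9, 12.4 and 15.5 CPM in withdrawal rats, 11.9, 13.4 and 16.1 CPM in chronic ethanol rats and 11.2, 14.5 and 15.5 CPM in control rats, with wide overlap. Sc5d (gene ID 114100, chr8:46525406-46537014, minus strand), a desaturase, had 157, 283 and 317 CPM in withdrawal rats, 282, 326 and 369 CPM in chronic ethanol rats and 304, 361 and 368 CPM in control rats; the 1 withdrawal rat inside the control range was rat 14, and the overlap came from control rat 5 at 304 CPM. Dhcr7 (gene ID 64191, chr1:217018916-217034890, plus strand), a reductase of the last step, had 15.4, 23.9 and 28.8 CPM in withdrawal rats, 23.9, 29.4 and 45.99 CPM in chronic ethanol rats and 30.9, 32.7 and 36.6 CPM in control rats. Withdrawal rats were again all below control rats, and the chronic ethanol group held both the highest rat of all, rat 8 at 45.99 CPM, and values as low as 23.9 CPM in rat 11.

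Among the regulators, Srebf2 (gene ID 300095, chr7:123381082-123438605, plus strand), the gene of SREBP2 itself, had 98.8, 159 and 173 CPM in withdrawal rats, 138, 160.3 and 194 CPM in chronic ethanol rats and 146, 163 and 203 CPM in control rats. The lowest withdrawal value was rat 13 and the other 5 lay inside the control range. Scap (gene ID 301024, chr8:118551869-118628650, plus strand) had 107, 117 and 119.7 CPM in withdrawal rats, 112, 119.8 and 125 CPM in chronic ethanol rats and 105, 108 and 125 CPM in control rats, so that all withdrawal rats lay inside the control range. Insig1 (gene ID 64194, chr4:342302-350515, plus strand), a retention protein that is itself an SREBP target, had 85.4, 153 and 189 CPM in withdrawal rats, 168, 188 and 207 CPM in chronic ethanol rats and 155, 213 and 237 CPM in control rats. Its 3 lowest withdrawal rats were below every control rat, and control rat 5 at 155 CPM made the overlap. Insig2 (gene ID 288985, chr13:37264818-37292718, minus strand), the related retention protein, had 39.2, 52.2 and 55.9 CPM in withdrawal rats, 50.04, 57.01 and 59.8 CPM in chronic ethanol rats and 51.6, 56.5 and 62.2 CPM in control rats. In sterol handling, Stard4 (gene ID 291699, chr18:25982210-25997555, minus strand), a carrier of cholesterol between membranes, had 14.3, 27.9 and 32.3 CPM in withdrawal rats, 23.9, 28.5 and 35.4 CPM in chronic ethanol rats and 31.2, 36.4 and 39.3 CPM in control rats, with 5 withdrawal rats below every control rat. Tmem97 (gene ID 303330, chr10:65811455-65820538, minus strand), a sterol-responsive membrane protein, had 6.84, 9.70 and 10.2 CPM in withdrawal rats, 7.84, 10.8 and 13.1 CPM in chronic ethanol rats and 9.28, 10.8 and 14.3 CPM in control rats and overlapping groups. Means of Srebf2 were 151 ± 26.3 CPM in withdrawal rats, 165 ± 20.7 CPM in chronic ethanol rats and 167 ± 19.9 CPM in control rats (SD, n = 6).

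The second comparison, chronic ethanol against control, describes the pathway while ethanol was still being taken. Nearly all log2 changes were below 0, by small amounts, and fewer were with the library index or the oligodendrocyte marker mean in the fit. The log2 change was below 0 for 27 of the 28 genes, against 51.3% of all genes tested, with a median of -0.14. Scap alone was on the other side, at 0.10 ± 0.05 (SE; adjusted p = 0.862). edgeR called 0 of the 28 (0.0% of all genes), DESeq2 called 0 of the 28 (0.13% of all genes were called lower) and 46 genes in all, and limma-voom called 2 genes. At an unadjusted p under 0.05, 5 of the 28 were lower, against 2.74% of all genes, and 0 were higher, against 3.1%; over all genes 1030 passed. The count of 5 depended on single rats. It was 0 without rat 11, 1 without rat 10 or control rat 3, 2 without rat 12 or control rat 6, 3 without control rat 1 or 4, and 8 without rat 9 or withdrawal rat 13, and the median was -0.09 without rat 11. Without rat 13, 5.32% of all genes were lower at that mark, against 2.74% with all rats. Shares without each of the other rats were not computed, so shifts in the whole fit cannot be told from shifts in the 28. In none of the 28 were all chronic ethanol rats below all control rats, against 0.408% of all genes. This comparison shares its control rats with the first, so the directions are not independent of each other.

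The 5 genes were Acat2l1 and Mvd of the mevalonate step, Sqle of the squalene step, Hsd17b7 of the late sterol step, and Stard4. Hsd17b7 had 18.4, 20.2 and 24.8 CPM in chronic ethanol rats and 21.998, 25.3 and 27.9 CPM in control rats, with a log2 change of -0.29 ± 0.12 (SE; adjusted p = 0.827) and 4 of 6 chronic ethanol rats below every control rat. Mvd had 17.3, 21.5 and 26.4 CPM in chronic ethanol rats and 21.9, 26.9 and 31.4 CPM in control rats, at -0.29 ± 0.12 (SE; adjusted p = 0.834). Acat2l1 stood at -0.30 ± 0.13 (SE; adjusted p = 0.837), Sqle at -0.24 ± 0.11 (SE; adjusted p = 0.838) and Stard4 at -0.32 ± 0.15 (SE; adjusted p = 0.852), each with some overlap of the groups. Idi1, with 5 of 6 chronic ethanol rats below every control rat, had 67.8, 78.1 and 85.6 CPM in chronic ethanol rats and 83.9, 92.3 and 100.1 CPM in control rats, and its log2 change was -0.24 ± 0.12 (SE; adjusted p = 0.884). Among the others with low p, Acat2 was at -0.27 ± 0.13 (SE; adjusted p = 0.869), Nsdhl at -0.15 ± 0.08 (SE; adjusted p = 0.894) and Fdps at -0.19 ± 0.10 (SE; adjusted p = 0.902). The remaining 18 genes had log2 changes between -0.22 and -0.01.

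Chronic ethanol rats were not alike. Rats 10, 11 and 12 had medians of -0.33, -0.44 and -0.18 over the 28 genes (log2 ratio to the control mean), and rats 7, 8 and 9 had -0.08, -0.03 and -0.06. Rat 11 was the lowest of its group for 18 of the 28 genes, and its median lay below those of 5 of the 6 withdrawal rats. Rats 7 and 8 share index A with the control rats. Against these, the median difference in mean log2 CPM of rats 7 and 8 was -0.05, with 18 of 28 genes lower, where all 6 chronic ethanol rats gave -0.13. The late sterol median was 0.001 within index A, where all rats gave -0.12. The share of all genes lower within index A was not computed. With the index as a term in the fit, 18 of the 28 genes were lower, with a median of -0.05. The late sterol median in that fit was -0.0006. There 1 of the 28 was lower at an unadjusted p under 0.05 (2.74% of all genes) and 1, Scap, was higher. With the oligodendrocyte marker mean as a term instead, 23 of the 28 were lower, with a median of -0.09. In that fit 5 were lower at an unadjusted p under 0.05 (6.29% of all genes) and 1 was higher. Of the oligodendrocyte markers themselves, 9 of 10 were lower in the main fit, with a median of -0.13. Rat 9, with index B, lay with rats 7 and 8. Rat 8 was among the libraries that stood apart. Without rats 5, 8, 13 and 17, 15 of the 28 genes were lower at an unadjusted p under 0.05 (6.59% of all genes), with a median of -0.22, and 0 of the 28 were called.

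The third comparison, withdrawal against chronic ethanol, sets rats 24 h into withdrawal beside rats at 0 h. Mevalonate enzymes had a median log2 change of -0.34, beside -0.21 for the squalene enzymes and -0.22 for the late sterol enzymes. Over the 28 genes the median was -0.22, against 0.02 over all genes, and 23 were below 0, against 46.7% of all genes. edgeR called 0 of the 28 (0.0% of all genes; 2704 genes had an unadjusted p under 0.05), DESeq2 called 1, Acat2l1, lower (0.686% of all genes were) among 301 genes, and limma-voom called 0 genes. At an unadjusted p under 0.05, 13 of the 28 were lower, against 5.95% of all genes, and 0 were higher, against 9.38%. Without chronic ethanol rat 9 there were 6, and the share over all genes in that fit was not computed. No gene of the set had every withdrawal rat below every chronic ethanol rat, which 0.544% of all genes did.

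Acat2l1 had the lowest p here too, with 3.89, 5.12 and 5.48 CPM in withdrawal rats and 4.54, 7.21 and 8.36 CPM in chronic ethanol rats and a log2 change of -0.46 ± 0.13 (SE; adjusted p = 0.161). Mvd was at -0.38 ± 0.12 (SE; adjusted p = 0.187), Acat2 at -0.41 ± 0.13 (SE; adjusted p = 0.192) and Hmgcs1 at -0.44 ± 0.16 (SE; adjusted p = 0.236). For Acat2, 4 of 6 withdrawal rats were below every chronic ethanol rat, and for Fdps and Insig1, 5 of 6 were. Fdps had 90.2, 106 and 129.9 CPM in withdrawal rats and 112, 131 and 153 CPM in chronic ethanol rats, at -0.28 ± 0.10 (SE; adjusted p = 0.239), and Insig1 had 85.4, 153 and 189 CPM in withdrawal rats and 168, 188 and 207 CPM in chronic ethanol rats, at -0.34 ± 0.14 (SE; adjusted p = 0.279). In both genes rat 14 was the withdrawal rat that overlapped. Dhcr7 was at -0.42 ± 0.16 (SE; adjusted p = 0.245), Hsd17b7 at -0.30 ± 0.12 (SE; adjusted p = 0.265), Idi1 at -0.29 ± 0.12 (SE; adjusted p = 0.296) and Sc5d at -0.28 ± 0.12 (SE; adjusted p = 0.306). Rats 13 to 16 and rats 9 to 12 share index B, and among them 24 of 28 genes were lower, with a median difference in mean log2 CPM of -0.19, where all rats gave -0.22. The share of all genes lower among them was not computed. The late sterol median within index B was -0.14, where all rats gave -0.23. With the index as a term in the fit, 4 of the 28 were lower at an unadjusted p under 0.05 (4.13% of all genes), in place of 13, with a median of -0.16. In that fit 1, Tm7sf2, was higher at that mark, with a log2 change of 1.25 and with rat 13 at 83.2 CPM included. With the oligodendrocyte marker mean as a term, edgeR called 508 of the 17637 genes tested and 7 of the 28 (Acat2, Acat2l1, Hmgcs1, Idi1, Cyp51, Sc5d and Dhcr7), all lower. In that fit 16 of the 28 were lower at an unadjusted p under 0.05 (9.08% of all genes). Rat 13, whose marker sum was 17302 CPM against 31134 CPM or more in other rats, was not left out of it. With no such term and without rat 13, edgeR called 22 genes and 0 of the 28, with a median of -0.17 over the 28. Without rats 5, 8, 13 and 17 it called 2 genes and 0 of the 28, with a median of -0.13.

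**Figure D4:**
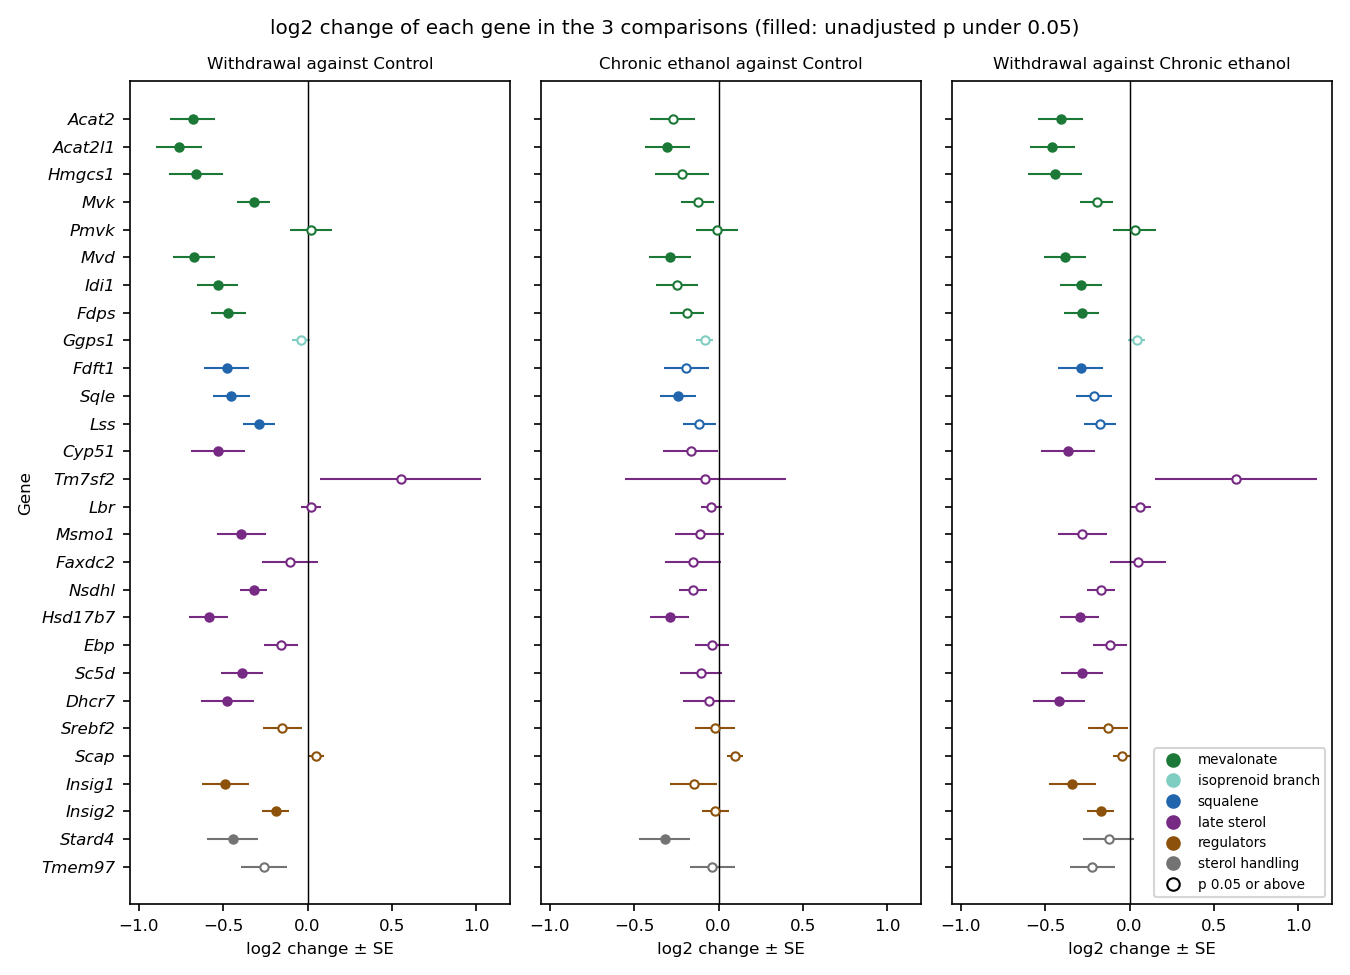
log2 change with its SE for the 28 genes in withdrawal against control (left), chronic ethanol against control (middle) and withdrawal against chronic ethanol (right); colours mark the pathway step and filled points an unadjusted p under 0.05. Filled points number 19, 5 and 13 from left to right, all below 0, and none of the 28 passed an adjusted p of 0.05 in edgeR.

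Within the withdrawal group, rat 13 was the lowest for 20 of the 28 genes and the highest for 4, and rat 14 was the highest for 20. The median log2 ratio of the 28 genes to the control mean was -0.85 in rat 13, -0.15 in rat 14 and between -0.40 and -0.36 in rats 15 to 18. For the mevalonate step, rats 13 to 18 had -1.03, -0.26, -0.61, -0.55, -0.51 and -0.55. Chronic ethanol rats 7 to 12 had -0.08, -0.03, -0.09, -0.42, -0.54 and -0.24. Control rats 1 to 6 had -0.06, -0.01, 0.13, 0.01, -0.20 and 0.10. Every withdrawal rat was thus below every control rat at this step, with rat 14 nearest, at -0.26 against -0.20 in control rat 5. The same held for the late sterol step, with rat 14 at -0.14 and control rat 5 at -0.12. It also held for sterol handling, with rat 14 at -0.16 and control rat 1 at -0.13. For the squalene step rat 14, at -0.15, lay above control rat 5, at -0.18. Withdrawal and control libraries share no first index, and no share over all genes was computed for step medians. In the regulators the groups overlapped; withdrawal rats 13 and 17, at -0.64 and -0.26, and chronic ethanol rat 8, at -0.13, lay below all control rats, the lowest of which was rat 5 at -0.12. The summed oligodendrocyte markers of rats 14 to 18 were 38452 to 45477 CPM, and those of control rats 31176 to 42841 CPM, so that 5 of the 6 withdrawal rats were not low in these markers. Astrocyte markers (7 of 7 detected) summed to 2575 to 5512 CPM in withdrawal rats, 3701 to 7089 CPM in chronic ethanol rats and 4173 to 6586 CPM in control rats; their part in the result was not tested. Red blood cell markers (3 of 3 detected) summed to 58.3 to 109 CPM in withdrawal rats, 32.8 to 139.8 CPM in chronic ethanol rats and 116 to 314 CPM in control rats, and their part was not tested either.

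**Figure D5:**
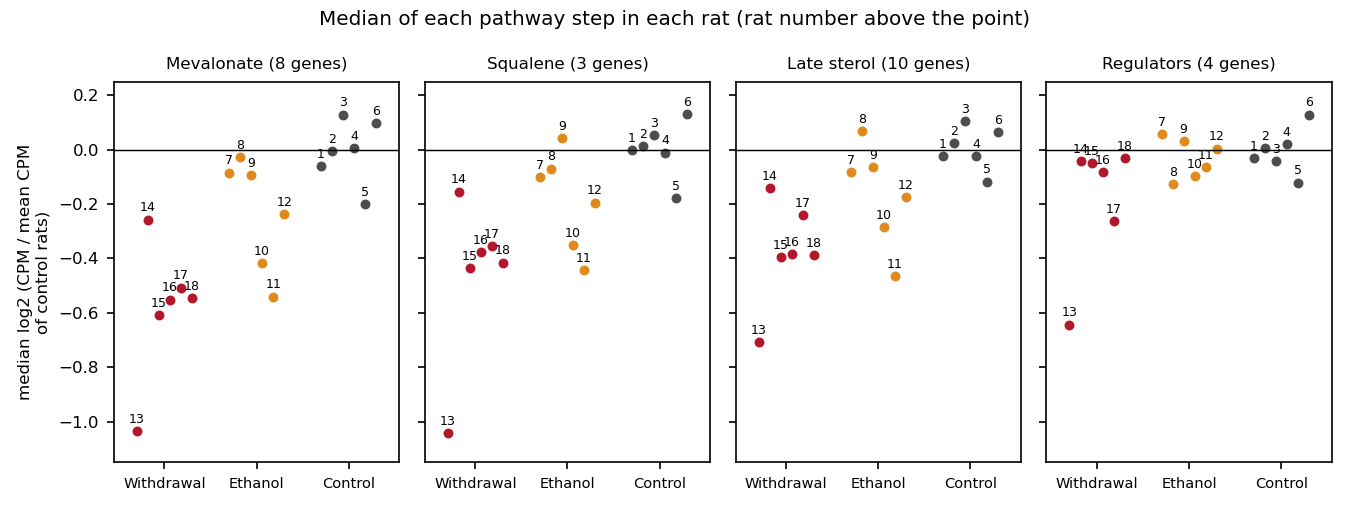
Each point is 1 rat's median log2 ratio of CPM to the control mean over the genes of a pathway step, with withdrawal rats on the left, chronic ethanol rats in the middle and control rats on the right of each panel and the rat's number above it. Mevalonate medians of withdrawal rats run from -1.03 to -0.26, all below those of control rats, while the regulators of most withdrawal rats lie among the other groups.

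A further 26 genes around the pathway were read from the same fit: 4 of acetyl-CoA supply, 8 of SREBP processing, 7 that use isoprenoids and 7 of sterol turnover and uptake. edgeR called none of them in any comparison. In withdrawal against control 14 were lower, against 46.3% of all genes tested, and 12 higher, with a median log2 change of -0.02. At an unadjusted p under 0.05, 2 of the 26 were lower, against 3.58% of all genes, and 1 was higher, against 6.24%. Acss2, which makes acetyl-CoA from acetate, averaged 96.03 ± 11.5 CPM in withdrawal rats and 124 ± 24.4 CPM in control rats (SD, n = 6), a log2 change of -0.37 ± 0.15 (SE; adjusted p = 0.458). Erlin2, a membrane protein of the endoplasmic reticulum, was at -0.11 ± 0.05 (SE; adjusted p = 0.488). Srebf1, the gene of the sister factor SREBP1 that mainly serves fatty acid synthesis, was the higher one, at 145 ± 12.9 CPM in withdrawal rats and 113 ± 16.6 CPM in control rats (SD, n = 6) and 0.36 ± 0.12 (SE; adjusted p = 0.403). In chronic ethanol against control 16 of the 26 were lower, against 51.3% of all genes, and 10 higher. At an unadjusted p under 0.05, 3 were lower, against 2.74% of all genes, and 2 were higher, against 3.1%. Srebf1 was one of these 2 higher genes, at 0.28 ± 0.12 (SE; adjusted p = 0.834). In withdrawal against chronic ethanol 14 were lower, against 46.7% of all genes, and 12 higher. At an unadjusted p under 0.05, 2 were lower, against 5.95% of all genes, and 3 were higher, against 9.38%. Cyp46a1, which hydroxylates cholesterol in neurons so that it can leave the brain, was at -0.41 ± 0.16 (SE; adjusted p = 0.269) there.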

How the data were processed

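RNA from dissected VTA was sequenced as stranded, paired-end mRNA libraries, per the labels' protocols. Raw counts of read pairs were deposited for each gene. Per the file headers and the submitters' processing notes, the authors obtained them with STAR 2.5.2a on Rnor_6.0 followed by featureCounts 1.5.0. Counting was strand-specific and ignored pairs with several matches, which removes reads shared by near-identical copies. R 3.3.3 and limma also stand in those notes. Symbols came from RefSeq gene IDs.

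Counts were analysed with edgeR 4.0.16 in R 4.3.3: filterByExpr (17637 of 38445 genes kept), TMM factors (0.976 to 1.03), and a two-sided quasi-likelihood F-test over all 18 libraries, adjusted over all genes by the Benjamini-Hochberg method and called under 0.05. SE values were taken as the absolute log2 change over the root of F. DESeq2 1.42.0, limma-voom (limma 3.58.1), other factors and filters, added terms and rats left out were alternatives. Medians by pathway step, counts at an unadjusted p and the shorter motif were additions made once the data had been seen. The script was tested on simulated data. The genes of the pathway, the other lists and the tests were chosen with earlier results of these data known. All 28 genes are given with levels, and the log2 change, SE and adjusted p for the 10 with the lowest p in each comparison. Replicate libraries were checked for copies, and none were found (lowest chi-square per degree of freedom 12.4).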

Additional observations from a re-analysis of the deposited data

Results flagged for a closer look

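Each gene was looked at in each group of 6 rats for a sample far from the other 5 (Dixon's criterion at 95%), and 14 of 84 such sets had one, where chance gives about 1 in 20. Of these, 10 were withdrawal rat 13 and 4 were control rat 5. Rat 13 was low, relative to the other 5 withdrawal rats, for Acat2l1 at 3.89 CPM against 4.99 to 5.48 CPM, Idi1 at 36.2 CPM against 64.1 to 76.5 CPM, Sqle at 52.99 CPM against 80.6 to 94.8 CPM, Cyp51 at 113 CPM against 219 to 278 CPM and Sc5d at 157 CPM against 274 to 317 CPM. It was also low for Srebf2 at 98.8 CPM against 152 to 173 CPM, Stard4 at 14.3 CPM against 26.4 to 32.3 CPM and Tmem97 at 6.84 CPM against 9.11 to 10.2 CPM. For a pair of genes rat 13 was high instead: Pmvk at 85.2 CPM against 44.4 to 53.2 CPM, and Tm7sf2 at 83.2 CPM against 8.44 to 12.3 CPM. The pineal markers of that library summed to 15426 CPM and its oligodendrocyte markers to 17302 CPM, against 38452 CPM or more in the other withdrawal rats; their part in these values was not tested.

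Control rat 5 was low, relative to the other 5 control rats, for Fdps at 109 CPM against 143 to 162 CPM, Fdft1 at 139 CPM against 173 to 188 CPM, Sc5d at 304 CPM against 360.3 to 368 CPM and Insig1 at 155 CPM against 207 to 237 CPM. Its Slc17a7 level was 509 CPM, against at most 14.3 CPM in the other control rats, and the part of this in the values was not tested.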

How the results depend on the processing

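No paired analysis was possible because rat numbers run from 1 to 18 and the groups share none. Settings were RLE factors, no filter, 1 CPM in 6 libraries, robust fitting, DESeq2, limma-voom, the 2 groups alone, the index or the oligodendrocyte marker mean as a term, an adjusted p of 0.1, each rat left out, and rats 5, 8, 13 and 17 left out together. None of the medians and none of the 10 genes with the lowest p in a comparison changed direction. Genes outside those 10 did in places. In withdrawal against control these included Tm7sf2 and Pmvk without rat 13, and Mvk, Msmo1, Dhcr7 and Tmem97 with the index term. In chronic ethanol against control, Hmgcs1, Mvk, Cyp51, Tm7sf2, Msmo1, Ebp, Dhcr7, Srebf2 and Tmem97 came to lie above 0 with the index term. That left 18 of the 28 below 0 there, in place of 27. Of 280 values of the 10 genes with the lowest p, 270 kept their side of the threshold in withdrawal against control and 10 came to pass it; in chronic ethanol against control all 280 kept it, and in withdrawal against chronic ethanol 273 did and 7 came to pass it. In withdrawal against control DESeq2 called 47 genes and 8 of the pathway. The index term gave a median of -0.18 over the 28 genes, -0.29 for the mevalonate, -0.32 for the squalene and -0.067 for the late sterol step. With it 4 genes were lower at an unadjusted p under 0.05 (2.54% of all genes). Leaving out each rat gave 0 to 2 genes called and 0 to 1 of the pathway (Idi1 without rat 13, Acat2l1 without rat 11). In chronic ethanol against control, the genes called were 1 at an adjusted p under 0.1, 46 with DESeq2, 2 with limma-voom, 2 with the 2 groups alone, 2 with the index term, 13 with the oligodendrocyte term, 2 without rats 5, 8, 13 and 17, and 0 to 4 with each rat left out. With the index term the mevalonate median was -0.061 and the late sterol median -0.0006. Genes lower at an unadjusted p under 0.05 numbered 1 with that term (2.74% of all genes) and 15 without the 4 rats (6.59% of all genes). They numbered 0 to 8 with each rat left out. In withdrawal against chronic ethanol, the genes called were 83 at an adjusted p under 0.1, 301 with DESeq2, 508 with the oligodendrocyte term, 2 without the 4 rats and 0 to 24 with each rat left out. Of the pathway, 1 was called with DESeq2 and 7 with the oligodendrocyte term. Lower genes at an unadjusted p under 0.05 numbered 8 with the 2 groups alone and 4 with the index term (4.13% of all genes). They numbered 8 without the 4 rats (6.6% of all genes) and 6 to 17 with each rat left out. Of the fits with a single rat left out, only that without rat 13 had shares over all genes computed. For the 2 groups alone no such share was computed either. The causes were not tested. With 6 rats a group and 1 tissue piece and 1 library each, p-values set a group difference against the variation among these libraries. Differences between rats, tissue pieces and libraries cannot be told apart in that variation.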
